A study of Mus musculus with 9 samples.

Results

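The 41 genes described here are interferon response genes, a named set of genes that cells switch on when type I or type II interferon binds its receptor, read out in the liver of mice on different diets. They were listed by symbol, with no threshold on their values, and all 41 had a row among the 45513 genes of the count table. Whole-liver RNA came from C57BL/6 mice in 3 groups of 3 libraries, each fed and treated for 9 weeks: a normal diet with vehicle, a high fat diet with vehicle, and a high fat diet with B-LGND2. B-LGND2 is a compound known only by its code name, which the series title presents as an estrogen receptor beta ligand. All mice carried the same strain background and no engineered allele is named. No group received B-LGND2 on the normal diet, so its difference from vehicle was measured on the high fat diet only. The labels state neither dose and route nor diet composition, age and sex.

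Interferons are secreted cytokines. Type I interferons bind the IFNAR receptor and, through the JAK1 and TYK2 kinases, activate a transcription factor complex with STAT2 and IRF9 that binds the interferon-stimulated response element (ISRE). Interferon gamma binds the IFNGR receptor and acts through the gamma-activated site (GAS). In liver, hepatocytes, Kupffer cells (the resident macrophages) and endothelial cells all answer to interferon. The 41 genes were ordered by role: 4 signalling factors, 5 nucleic acid sensors, 11 antiviral effectors, 4 genes of the ISG15 system with its ubiquitin ligases, 9 interferon-inducible GTPases and 8 other interferon-induced proteins.

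The response elements can be read in the start regions of these genes. RefSeq promoter windows on GRCm38.p6, from 250 bases before to 50 bases after a transcription start, were found for 31 of the 41 genes, in 36 windows. The stretches below were picked because they hold matches to these elements. They come from members whose values are described further on, from close relatives of those, and from Ifit1 as a further example. Capitals mark matches to the ISRE core (GAAANNGAA, on either strand) or to GAS (TTCNNNGAA, its own reverse complement), and matches may overlap. All are written 5′ to 3′ on the strand of the gene. Isg15 lies at chr4:156200859-156200918 (minus strand), Bst2 at chr8:71537573-71537632 (minus), Ifit1 at chr19:34640759-34640818 (plus), Igtp at chr11:58199486-58199545 (plus), Irgm2 at chr11:58214877-58214936 (plus), Tgtp1 at chr11:48992297-48992356 (minus) and Irgm1 at chr11:48871421-48871480 (minus).
Isg15: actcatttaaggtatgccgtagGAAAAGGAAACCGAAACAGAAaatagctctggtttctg
Bst2: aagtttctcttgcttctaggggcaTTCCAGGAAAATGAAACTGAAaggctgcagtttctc
Ifit1: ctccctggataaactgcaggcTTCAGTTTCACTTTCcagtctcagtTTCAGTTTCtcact
Igtp: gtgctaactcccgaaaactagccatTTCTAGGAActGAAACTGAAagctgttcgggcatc
Irgm2: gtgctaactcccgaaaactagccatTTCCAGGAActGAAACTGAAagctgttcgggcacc
Tgtp1: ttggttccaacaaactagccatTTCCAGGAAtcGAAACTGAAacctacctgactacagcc
Irgm1: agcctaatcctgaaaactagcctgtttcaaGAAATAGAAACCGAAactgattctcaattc
In Isg15 the ISRE cores run into each other, and in Ifit1 they lie on the opposite strand in a pair of blocks. In Bst2 the GAS match runs into the ISRE cores. In Igtp, Irgm2 and Tgtp1 a GAS match is followed 2 bases later by an ISRE core, whereas the Irgm1 stretch holds ISRE cores without GAS.

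The ISRE core was present in 22 of the 36 member windows (61.1%), against 8.56% of 32851 promoter windows of the same length. GAS was present in 10 member windows (27.8%), against 8.30% of all windows. Both were present in 7 member windows (19.4%), against 1.07% of all. By role, an ISRE core was found for 7 of 8 GTPases with a window, 3 of 3 sensors, 3 of 3 genes of the ISG15 system, 6 of 9 effectors, 1 of 4 signalling factors and 1 of 4 other proteins. The arrangement of GAS and ISRE core 2 bases apart was noticed after the sequences were seen. It occurred in 8 windows in all, those of Igtp, Irgm2, Tgtp1, its relative Tgtp2, Gm12185, Adar, Olfr382 and LOC115488470. Among the members, 11 windows held neither element, including those of Ifi47, Irf7 and Oasl1. No window was found for Ly6e. A match is a description of letters, not a measured binding site.

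Liver levels of the set spanned a wide range. Per kilobase of annotated exon, in counts per 1e6 counts (CPM) averaged over the 9 libraries, Bst2 stood highest at 153.5 CPM per kb. Bst2 encodes tetherin, which holds budding virus particles at the cell surface. Ly6e, a lipid-anchored surface protein, followed at 67.0 CPM per kb, and Iigp1, a GTPase that attacks the vacuoles of intracellular parasites, at 62.7. Ifi27 reached 51.7 and Lgals3bp 36.5 CPM per kb. Isg15, the ubiquitin-like protein that is attached to other proteins during an interferon response, led its own role at 20.5 CPM per kb. The highest signalling factor was Irf7, which drives interferon gene transcription, at 9.11, and the highest sensor was Ifih1, the long double-stranded RNA receptor MDA5, at 3.62. Of all counts that fell on the 41 genes, Iigp1 took 22.1%, Ly6e 15.7% and Bst2 8.67%.

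The filter on low counts was passed by 38 of the 41 genes, out of 12102 genes tested in all. The other 3 were classical interferon response genes at the edge of detection. Oas1a, a 2-5A synthetase, had 1 to 9 counts per library, and Mx1, a dynamin-like antiviral GTPase, had 0 to 16. Tgtp1 had 0, 1 and 1 counts in the normal diet libraries, 2, 0 and 2 in the high fat vehicle libraries, and 1, 0 and 0 in the B-LGND2 libraries. No difference between groups was detectable for these 3 at this depth.

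Libraries held 5778978 to 10322972 counts, the fewest and the most being B-LGND2 libraries, and no pair agreed within sampling noise (lowest chi-square per degree of freedom 11.8). The series text states an n of 3 for each group without saying how animals were housed or processed, so p-values reflect only how these samples vary. Genes annotated as ribosomal RNA took 3.16% to 3.74% of counts on the normal diet, 0.901% to 1.44% on the high fat diet with vehicle and 4.31% to 6.19% with B-LGND2. Normal diet replicate 1 stood apart by mitochondrially encoded genes, 12.7% of its counts against 3.69% to 6.12% in the other 8 libraries. B-LGND2 replicate 1 stood apart by GC content: the rank correlation of a gene's GC content with its deviation from the gene's mean was 0.521 there and −0.262 to 0.0825 in the others. The same correlation for transcript length was 0.321 to 0.358 in the high fat vehicle libraries, −0.516 to 0.187 on the normal diet and −0.238 to 0.132 with B-LGND2. The 9 hepatocyte markers, all of them measured, summed to 71896 to 117047 CPM.

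**Figure D1:**
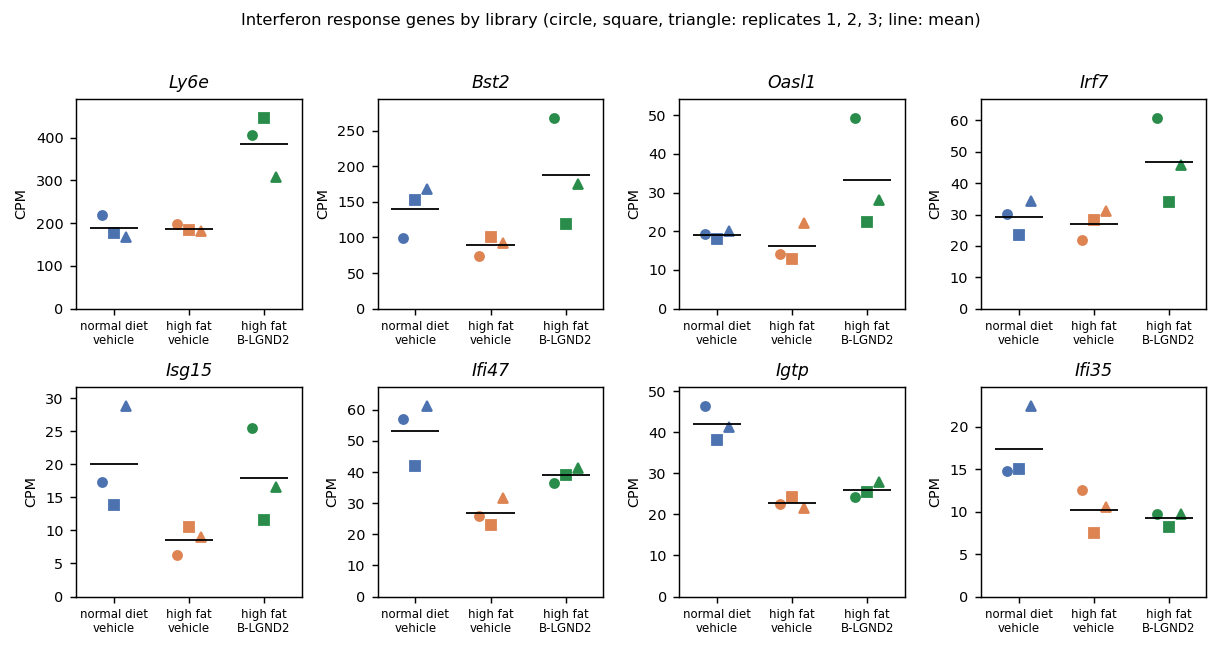
Level in CPM of 8 interferon response genes (vertical axes, linear, from 0) in each library of the 3 groups. Points are libraries, with circle, square and triangle for replicates 1, 2 and 3, and lines are group means (n = 3). Ly6e lay at 307 to 445 CPM with B-LGND2 and at 167 to 218 CPM in the other 6 libraries, while Igtp lay at 38.0 to 46.3 CPM on the normal diet and at 21.6 to 27.8 CPM in the other 6.

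The first comparison asked how the high fat diet changed these genes under vehicle. Ifi47 and Igtp fell, both immunity-related GTPases that interferon gamma induces and that act at the vacuoles of intracellular pathogens. No member rose. Of the 38 genes tested, 0 were called higher (background 1.5% of all genes tested) and 2 lower (background 1.49%), by edgeR's quasi-likelihood test at an adjusted p under 0.05. The point estimates lay above 0 for 14 members and below 0 for 24. Their median log2 fold change was −0.07, against 0.01 over all genes tested. The median was −0.12 for the GTPases, −0.10 for the effectors, −0.33 for the sensors, 0.12 for the signalling factors, 0.12 for the ISG15 system and 0.02 for the other proteins. At an unadjusted p under 0.05 there were 0 higher and 6 lower members, beside 1288 higher and 1424 lower of all 12102 genes. The DESeq2 Wald test called 3 members, all lower, with Isg15 as the additional gene (adjusted p = 0.0163). Over all genes that test also made more calls, as given in the last section.

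Ifi47 was at 56.9, 41.8 and 61.1 CPM on the normal diet, at 25.9, 23.0 and 31.5 CPM on the high fat diet with vehicle, and at 36.6, 39.1 and 41.3 CPM with B-LGND2. The high fat vehicle libraries all lay below the other 6, and the B-LGND2 libraries lay between. The fall was 1.99-fold (log2 fold change −0.99, SE 0.23, 95% interval −1.47 to −0.51, adjusted p = 0.0318). Igtp was at 46.3, 38.0 and 41.4 CPM on the normal diet, at 22.6, 24.2 and 21.6 CPM on the high fat diet with vehicle, and at 24.3, 25.5 and 27.8 CPM with B-LGND2. All 6 high fat libraries lay below all 3 normal diet libraries. The fall was 1.84-fold (log2 fold change −0.88, SE 0.21, 95% interval −1.32 to −0.43, adjusted p = 0.0366). Both genes sit on chromosome 11, Ifi47 at 49076587 to 49096974 and Igtp at 58199556 to 58207591 (GRCm38). In the annotation Igtp shares 162 exon bases with Irgm2 and Ifi47 shares 111 with Olfr56, and reads from the shared parts cannot be told apart.

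Neither call held in every fit with a library left out. The log2 fold changes in those fits ran from −1.14 to −0.88 for Ifi47 and from −0.94 to −0.80 for Igtp. Ifi47 lost its call without normal diet replicate 3 (adjusted p = 0.0884) or without high fat vehicle replicate 1 (0.127), 2 (0.161) or 3 (0.0834). Igtp lost it without normal diet replicate 2 (0.0745) or 3 (0.0703) or high fat vehicle replicate 1 (0.142), 2 (0.137) or 3 (0.157). Without normal diet replicate 1, 4 members were called instead of 2. Calls over all genes also moved with each library left out, as given in the last section, so this count alone says little about the members. With each gene's length and GC content as an offset, chosen after the data were seen, the log2 fold changes of Ifi47 and Igtp were −0.71 (adjusted p = 0.0734) and −0.69 (0.0741). With library size alone in place of TMM scaling, which moved the median of all genes by 0.17, neither was called (0.077 and 0.101).

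Several members were near the threshold. Isg15 was at 17.3, 13.9 and 28.8 CPM on the normal diet and at 6.27, 10.5 and 9.06 CPM on the high fat diet with vehicle, without overlap. Its log2 fold change had the largest size among the members, −1.21 (SE 0.34, adjusted p = 0.0605). Ifi35, the partner of the interferon-induced protein NMI, was at 14.8, 15.1 and 22.4 CPM on the normal diet against 12.5, 7.52 and 10.6 CPM (log2 fold change −0.77, adjusted p = 0.115). Its annotated exons share 290 bases with an antisense gene. Bst2 overlapped between the groups, at 98.7, 153 and 169 CPM against 74.2, 100.01 and 91.9 CPM (−0.66, adjusted p = 0.181). Libraries of both groups did not overlap for 2 higher members, Irf1 and Trim25 (background 15.4% of all genes), and for 5 lower members, Ifi35, Ifi47, Igtp, Isg15 and Rtp4 (background 14.8%).

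Close relatives of Ifi47 and Igtp did not pass the test. Irgm1, a regulator of the other immunity-related GTPases, was at 82.8, 71.6 and 67.9 CPM on the normal diet and at 71.9, 66.3 and 71.4 CPM on the high fat diet with vehicle. Its log2 fold change was −0.09, with a 95% interval of −0.50 to 0.32. Iigp1 was at 425, 327 and 419 CPM against 343, 331 and 378 CPM, with a log2 fold change of −0.16 (95% interval −0.72 to 0.41). The intervals of Igtp and Irgm1 overlap, and the difference between these genes was not tested. Ly6e was at 218, 177 and 167 CPM against 197, 183 and 182 CPM, a log2 fold change of −0.001 with an interval of −0.44 to 0.44.

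Other measures moved with this comparison. Summed immediate early and heat shock genes, 15 genes that respond to handling and stress, were at 252 to 342 CPM on the normal diet and at 447 to 539 CPM on the high fat diet with vehicle. The ribosomal RNA share and the dependence on transcript length given above also separated these groups. The 17 macrophage markers summed to 423 to 685 CPM and 418 to 542 CPM, with none called. The part of these measures in the falls of Ifi47 and Igtp was not tested beyond the length and GC offset.

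**Figure D2:**
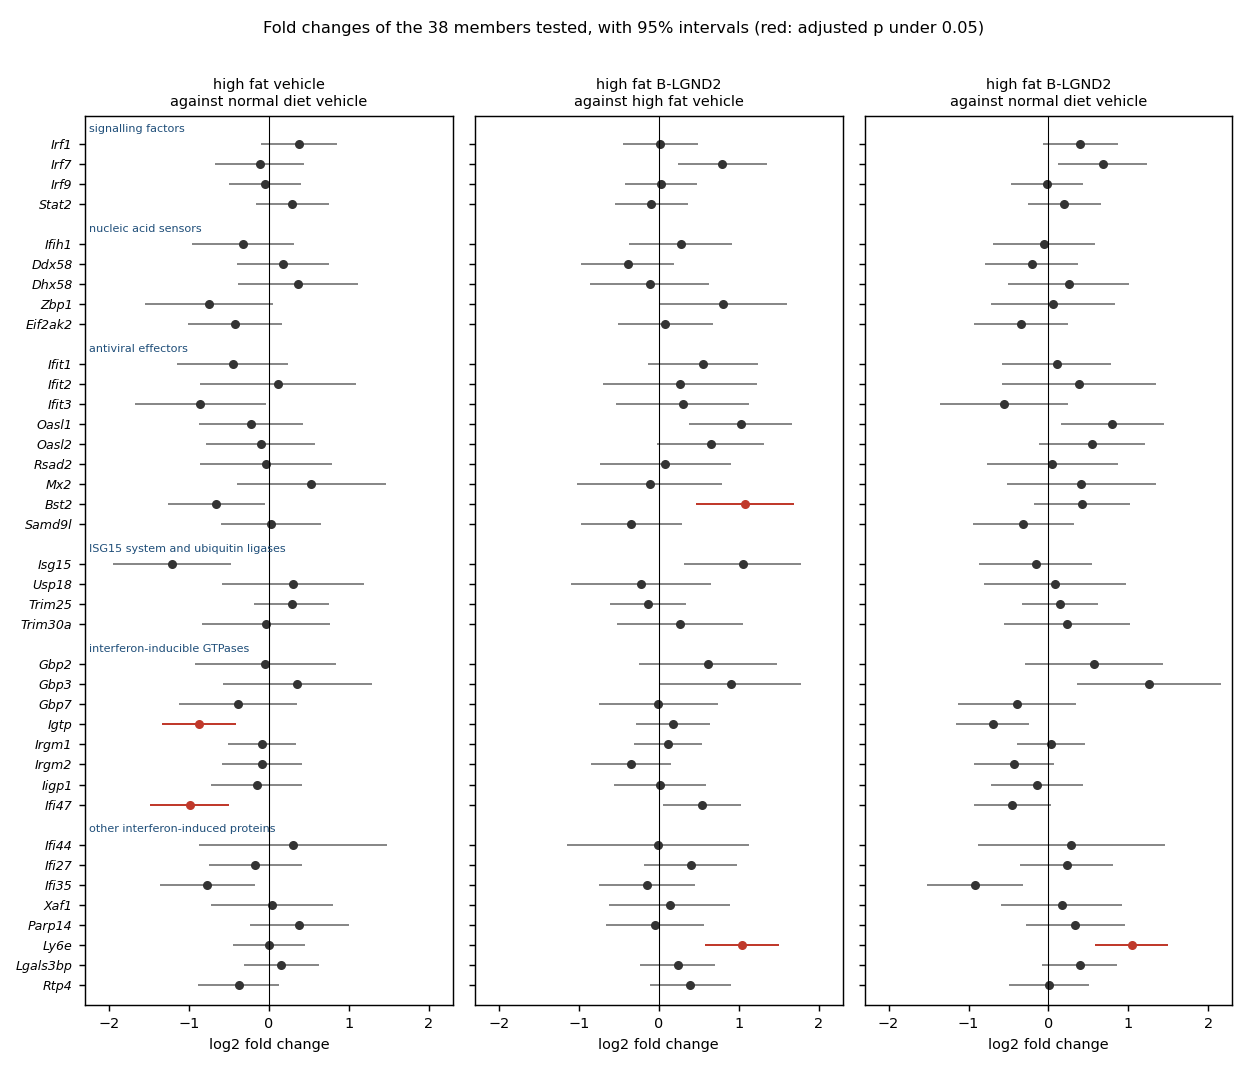
Log2 fold change (horizontal axis, log scale) of the 38 interferon response genes tested, by role, in the 3 comparisons. Points are edgeR estimates, bars are 95% intervals and red marks an adjusted p under 0.05: Ifi47 and Igtp for the diet, Ly6e and Bst2 for B-LGND2 against vehicle, and Ly6e for B-LGND2 against normal diet.

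The second comparison asked what B-LGND2 changed on the high fat diet. Ly6e and Bst2 rose, both encoding surface proteins. No member fell. Of the 38 genes tested, 2 were called higher (background 3.07%) and 0 lower (background 2.56%). The point estimates lay above 0 for 26 members and below for 12, with a median log2 fold change of 0.16 against −0.003 over all genes. With library size alone, which moved the median of all genes by −0.18, 19 lay above and 19 below, and the median was −0.02. At an unadjusted p under 0.05 there were 8 higher and 0 lower members, beside 1553 higher and 1321 lower of all 12102 genes. The median was 0.30 for the effectors, 0.15 for the GTPases, 0.19 for the other proteins, 0.08 for the sensors, 0.06 for the ISG15 system and 0.03 for the signalling factors. Summed over the 41 genes, the level was 1596 ± 107 CPM on the normal diet, 1455 ± 72.04 CPM on the high fat diet with vehicle and 1860 ± 234 CPM with B-LGND2 (SD, n = 3 each).

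Ly6e was at 197, 183 and 182 CPM on the high fat diet with vehicle and at 405, 445 and 307 CPM with B-LGND2. The 3 B-LGND2 libraries lay above all 6 others. The rise was 2.06-fold (log2 fold change 1.04, SE 0.21, 95% interval 0.60 to 1.49, adjusted p = 0.0134). Bst2 was at 74.2, 100.01 and 91.9 CPM on the high fat diet with vehicle and at 268, 119 and 175 CPM with B-LGND2. These 2 groups did not overlap, but the B-LGND2 libraries overlapped the normal diet libraries at 98.7 to 169 CPM. The rise was 2.11-fold (log2 fold change 1.08, SE 0.28, 95% interval 0.48 to 1.68, adjusted p = 0.0375). Ly6e lies on chromosome 15 at 74955051 to 74959905 and Bst2 on chromosome 8 at 71534255 to 71537456 (GRCm38).

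Of these calls, that of Ly6e held in 17 of 20 alternative settings, with log2 fold changes of 0.86 to 1.18. It was lost without high fat vehicle replicate 1 (adjusted p = 0.0583), 2 (0.0832) or 3 (0.061). With the length and GC offset its log2 fold change was 0.86 (adjusted p = 0.0153). The call of Bst2 held in 9 of 20. It was lost without normal diet replicate 2 (0.0555), B-LGND2 replicate 1 (0.169) or 3 (0.0655), or any of the high fat vehicle replicates 1 (0.149), 2 (0.107) and 3 (0.111). With the length and GC offset the log2 fold change of Bst2 was 0.56 (adjusted p = 0.107). Its transcript, 792 bases, is the second shortest of the 38.

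Oasl1, Isg15 and Irf7 lay near the threshold. Oasl1, which in mice holds back translation of Irf7, was at 14.0, 12.8 and 22.2 CPM on the high fat diet with vehicle and at 49.2, 22.4 and 28.1 CPM with B-LGND2 (log2 fold change 1.03, SE 0.30, adjusted p = 0.0541). Isg15 was at 6.27, 10.5 and 9.06 CPM against 25.5, 11.6 and 16.5 CPM (1.05, SE 0.34, adjusted p = 0.0761). Irf7 was at 21.8, 28.1 and 31.2 CPM against 60.7, 34.0 and 45.8 CPM (0.79, SE 0.26, adjusted p = 0.077). For Bst2, Oasl1, Isg15 and Irf7 alike, B-LGND2 replicate 1 was the highest and replicate 2 the lowest of the 3 treated libraries. The DESeq2 Wald test called Oasl1, Isg15 and Irf7 as well (adjusted p = 0.0223, 0.0435 and 0.045). Without replicate 1 the log2 fold changes of Bst2, Oasl1, Isg15 and Irf7 were 0.76, 0.65, 0.73 and 0.59. The transcripts of these 4 genes have a GC content of 52.8% to 56.3%. Among the 19 members above the median GC content, 9 were highest in replicate 1, 3 in replicate 2 and 7 in replicate 3. Ly6e, at 55.4% GC, was highest in replicate 2.

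Libraries of both groups did not overlap for 10 higher members (background 16.4%): Bst2, Ifi47, Igtp, Irf7, Irgm1, Isg15, Ly6e, Oasl1, Oasl2 and Rtp4. For 1 lower member, Ddx58, which encodes the RNA sensor RIG-I, they did not overlap either (background 17.2%). Ifi47, lower on the high fat diet, had a log2 fold change of 0.54 with B-LGND2 (95% interval 0.06 to 1.02, adjusted p = 0.157). Igtp had 0.18 (95% interval −0.27 to 0.63). Both comparisons share the high fat vehicle libraries. Rtp4 was at 14.0, 14.4 and 14.2 CPM with B-LGND2, against 11.4, 9.78 and 11.3 CPM (log2 fold change 0.39, adjusted p = 0.319).

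The members with the most counts did not all move. Iigp1 was at 374, 201 and 489 CPM with B-LGND2 and at 343, 331 and 378 CPM with vehicle. The treated libraries surrounded the vehicle libraries, and the log2 fold change was 0.02 (95% interval −0.55 to 0.58), negative under several settings. Ifih1 behaved in a like way, at 29.3, 17.4 and 46.1 CPM against 27.7, 26.2 and 22.9 CPM (0.27, 95% interval −0.35 to 0.90, and −0.13 without B-LGND2 replicate 3). Irgm1 was at 77.4, 77.4 and 72.3 CPM against 71.9, 66.3 and 71.4 CPM (0.12, 95% interval −0.29 to 0.53).

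**Figure D3:**
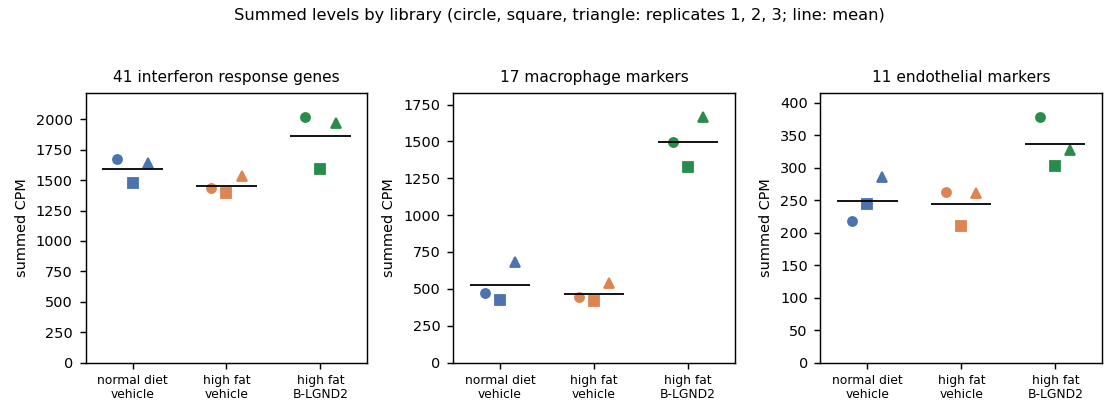
Summed CPM (vertical axes, linear, from 0) of the 41 interferon response genes, 17 macrophage markers and 11 endothelial markers in each library. Points are libraries, with circle, square and triangle for replicates 1, 2 and 3, and lines are group means (n = 3). The macrophage sum was 1327 to 1664 CPM with B-LGND2 and 418 to 685 CPM in the other 6 libraries, and the endothelial sum was 303 to 377 CPM against 211 to 285 CPM.

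Markers of some other liver cells and signs of sample state moved in the same comparison. Of 17 macrophage markers, all of them measured and none at 0, 12 were called higher with B-LGND2 and 0 lower, with a median log2 fold change of 1.42. Their sum was 418 to 542 CPM with vehicle and 1327 to 1664 CPM with B-LGND2. The 11 endothelial markers summed to 211 to 262 CPM against 303 to 377 CPM, with 1 of 10 tested called higher. The 7 cholangiocyte markers summed to 33.1 to 39.9 CPM against 100.1 to 138.9 CPM. Tff3, a trefoil peptide of mucous epithelia (mean 3.32 to 55.3 CPM), and Spp1, the secreted protein osteopontin (23.8 to 46.2 CPM), carried most of that rise and were the only 2 of 4 tested that were called. Krt19 and Sox9 were not called (adjusted p = 0.606 and 0.627). T and NK cell markers were sparse, 2 of 13 tested, with sums of 5.85 to 6.77 CPM against 8.83 to 12.3 CPM. Plasmacytoid and conventional dendritic cell markers, counted without Bst2, which is itself such a marker in mice, summed to 18.9 to 20.8 CPM against 16.3 to 17.3 CPM. The 8 neutrophil markers, with 1 tested and not called, summed to 3.16 to 5.02 CPM against 5.56 to 10.3 CPM, with Ly6g at 0 in all 9 libraries. Immediate early and heat shock genes summed to 447 to 539 CPM with vehicle and 258 to 363 CPM with B-LGND2, and 4 of 13 tested were called lower (Btg2, Egr1, Zfp36 and Junb). The ribosomal RNA share given above separated these groups as well. The part of these measures in the rises of Ly6e and Bst2 was not tested. In RNA from whole liver, a change in the number of cells of a type and a change in RNA per cell cannot be told apart.

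The third comparison set the high fat B-LGND2 group beside the normal diet vehicle group, and shares libraries with both others. Ly6e was higher by 2.06-fold (log2 fold change 1.04, SE 0.21, adjusted p = 0.0163). It was 1 of 38 members called higher (background 1.59%), and 0 were called lower (background 1.33%). The median log2 fold change was 0.12, against −0.01 over all genes, with 25 members above 0 and 13 below. By role the median was 0.38 for the effectors, 0.30 for the signalling factors and 0.26 for the other proteins. It was 0.11 for the ISG15 system, −0.06 for the sensors and −0.27 for the GTPases. At an unadjusted p under 0.05 there were 4 higher and 2 lower members, beside 1231 higher and 1121 lower of all 12102 genes. The call of Ly6e was lost without normal diet replicate 2 (adjusted p = 0.0783) or B-LGND2 replicate 2 (0.0501), or when only the 2 groups compared were fitted (0.0585).

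Ifi35 was at 9.73, 8.24 and 9.66 CPM with B-LGND2, below all 3 normal diet libraries and near the high fat vehicle libraries (log2 fold change −0.92, SE 0.28, adjusted p = 0.0823). With the length and GC offset it was called (−0.91, adjusted p = 0.0463). Igtp had a log2 fold change of −0.70 (SE 0.21, adjusted p = 0.0835). The DESeq2 Wald test called both Ifi35 and Igtp lower (adjusted p = 0.0486 and 0.0333). Gbp3, a guanylate-binding protein of the interferon-inducible GTPases, was at 3.12, 2.65 and 1.94 CPM on the normal diet and at 6.95, 2.80 and 8.66 CPM with B-LGND2, with overlap (1.25, SE 0.42, adjusted p = 0.117). Without B-LGND2 replicate 2 its log2 fold change was 1.598 (adjusted p = 0.0443). Oasl1 had 0.80 (SE 0.30, adjusted p = 0.154). Libraries did not overlap for 3 higher members, Irf1, Ly6e and Oasl1 (background 10.5%), and for 3 lower ones, Ifi35, Ifi47 and Igtp (background 10%). Ly6e lay at 167 to 218 CPM in both vehicle groups and higher with B-LGND2, and Igtp lay lower in every high fat library than in any normal diet library.

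**Figure D4:**
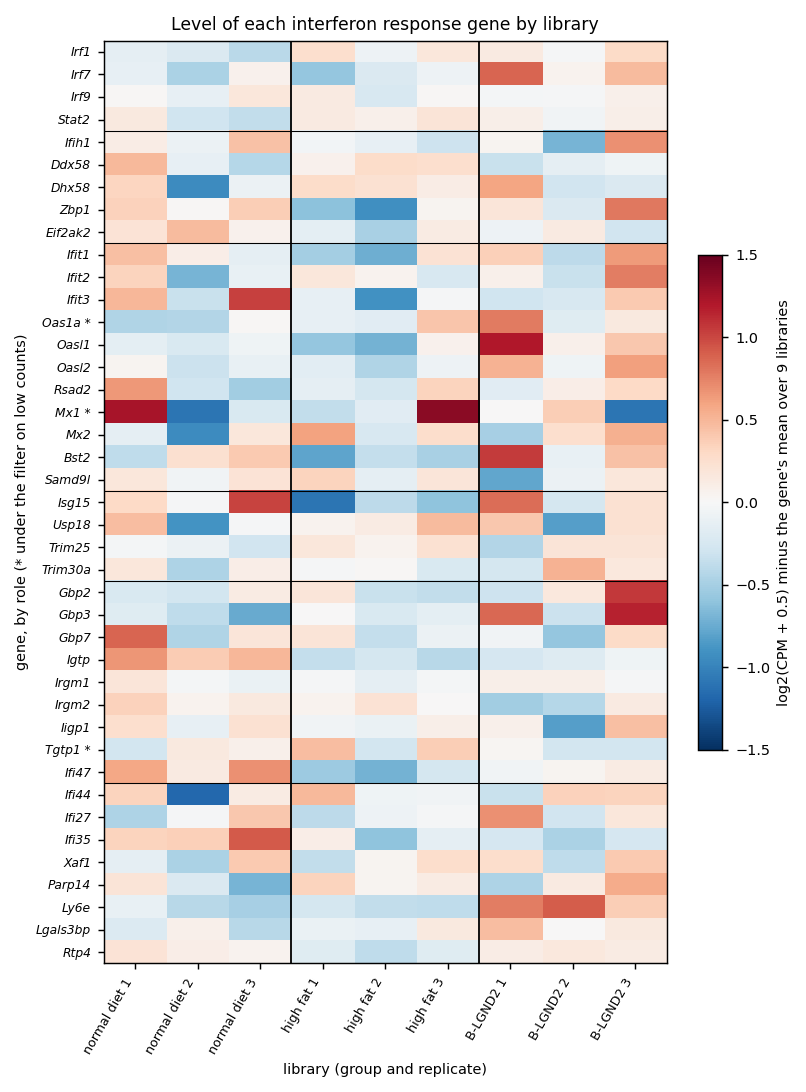
Level of each of the 41 interferon response genes in each library, as log2(CPM + 0.5) minus the mean of the gene over 9 libraries (colour, limited to −1.5 to 1.5), with genes in rows by role and libraries in columns by group. Asterisks mark the 3 genes under the filter on low counts. Among the 38 genes tested, 22 were highest in replicate 3 of the 3 B-LGND2 libraries and 20 were lowest in replicate 2.

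The members had their widest spread among the B-LGND2 libraries, a description with no test and no value over all genes beside it. It is therefore not shown to be particular to the members. Whole libraries differed by a chi-square per degree of freedom of 24.1 to 43.3 within the B-LGND2 group. That measure was 11.8 to 16.3 within the high fat vehicle group and 27.4 to 83.9 within the normal diet group. The median coefficient of variation over 38 members was 30.0% with B-LGND2, 14.6% on the high fat diet with vehicle and 19.9% on the normal diet. With B-LGND2 it ran from 1.43% for Rtp4 to 54.2% for Gbp2. Of the 38 members, 10 were highest in B-LGND2 replicate 1, 6 in replicate 2 and 22 in replicate 3. Which library was highest varied with the GC content of the transcript. Among 19 members above the median of 48.2% GC, 9 were highest in replicate 1 and 7 in replicate 3. Among the 19 at or below it, 1 was highest in replicate 1 and 15 in replicate 3. Values also varied with transcript length: the median log2 fold change with B-LGND2 against vehicle was 0.39 for the 19 shorter members and 0.03 for the 19 longer ones. For the diet it was −0.17 and −0.05.

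**Figure D5:**
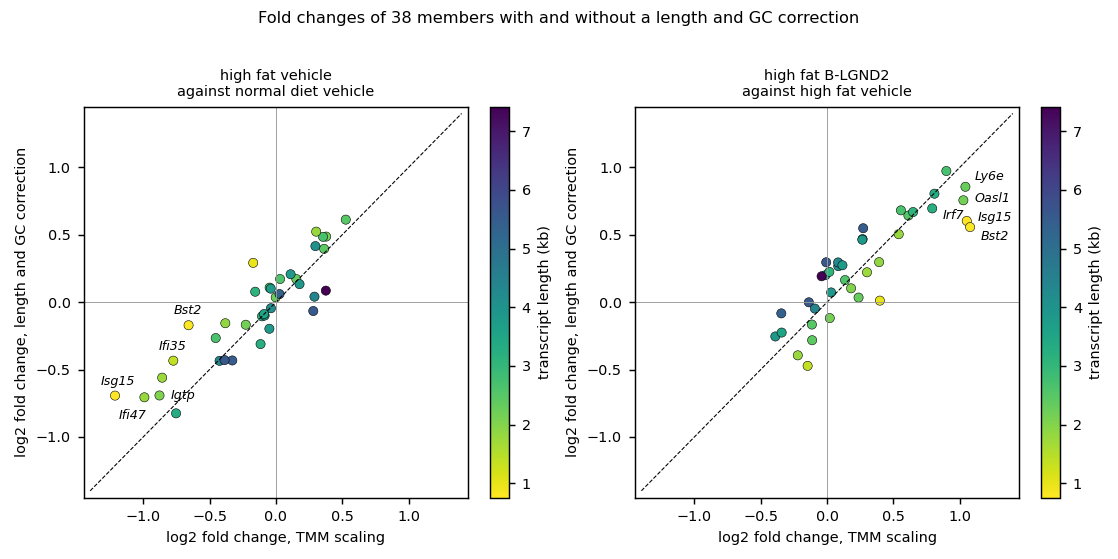
Log2 fold change of 38 interferon response genes with TMM scaling (horizontal axis) and with an added offset for transcript length and GC content (vertical axis), for the diet (left) and for B-LGND2 against vehicle (right). Points are genes, colour is transcript length in kilobases and the dashed line marks equal values. Bst2 went from 1.08 to 0.56 and Isg15 from 1.05 to 0.60 with B-LGND2, while Ly6e went from 1.04 to 0.86.

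The offset for length and GC moved the 3 shortest members most in both comparisons. Ifi27 (977 bases) went from −0.17 to 0.29 for the diet and from 0.40 to 0.01 for B-LGND2. Isg15 (756 bases) went from −1.21 to −0.69 for the diet and from 1.05 to 0.60 for B-LGND2. Bst2 went from −0.66 to −0.17 for the diet and from 1.08 to 0.56 for B-LGND2. Ly6e (2281 bases) and Irf7 (3240 bases) moved less for B-LGND2, from 1.04 to 0.86 and from 0.79 to 0.70. The offset kept 1 of the 2 calls for B-LGND2 against vehicle, Ly6e, and 0 of the 2 for the diet.

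The rest of the pathway was read from lists of genes that are not members. Of 21 interferon genes, 19 had 0 counts in all 9 libraries and the other two had 4 counts together, 3 of them in Ifng. No group difference in interferon transcripts was detectable at this depth. Of 9 receptor and kinase genes, 8 were tested and 0 were called in any comparison (3 higher and 0 lower at an unadjusted p under 0.05 for B-LGND2 against vehicle, 0 and 2 for the diet, 0 and 0 for the third). Ifnar1, a chain of the type I receptor, had log2 fold changes of 0.11 for the diet and −0.24 for B-LGND2 (adjusted p = 0.835 and 0.579). Ifngr1, a chain of the interferon gamma receptor, had −0.42 and 0.60 (adjusted p = 0.350 and 0.170). Of 17 genes for sensing upstream of interferon, receptors together with their adaptors and kinases, 11 were tested and 0 were called in any comparison. The sensor genes Cgas, Tlr7, Tlr8, Tlr9 and Aim2 were under the filter on low counts, so the genes tested were mostly adaptors and kinases. At an unadjusted p under 0.05, 2 were higher and 0 lower for the diet, 0 and 1 for B-LGND2 against vehicle, and 2 and 1 for the third comparison. The counts over all genes at that threshold are given above with each comparison.

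Among genes for interferon regulatory factors and inhibitors outside the set, Irf2 and Socs3 were called. Irf2, which competes with Irf1 at response elements, rose on the high fat diet (1.02, SE 0.24, adjusted p = 0.0364), a call that held in 12 of 20 alternatives. Socs3, an inhibitor of JAK signalling best known downstream of interleukin 6, rose as well (1.53, SE 0.33, adjusted p = 0.0253), in 15 of 20. Irf2 lost its call without any 1 library other than normal diet replicate 1 and B-LGND2 replicate 3, with adjusted p up to 0.158. Socs3 lost it without normal diet replicate 2 (0.0764) or 3 (0.0774) or high fat vehicle replicate 1 (0.106) or 2 (0.0859). With B-LGND2 against the normal diet, Socs3 was higher by 2.36 (SE 0.33, adjusted p = 0.00117), called in 20 of 20 alternatives. With B-LGND2 against vehicle, neither was called (log2 fold change −0.60 for Irf2, adjusted p = 0.144, and 0.83 for Socs3, adjusted p = 0.116).

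A further 65 interferon-stimulated genes outside the set held 41 that could be tested. On the high fat diet 0 were called (background 1.5% higher and 1.49% lower). At an unadjusted p under 0.05 there, 7 were higher and 5 lower, beside 1288 and 1424 of all 12102 genes. With B-LGND2 against vehicle, 3 rose (background 3.07%) and 1 fell (background 2.56%). Unadjusted, 6 were higher and 2 lower, beside 1553 and 1321 of all genes. Slfn2, a Schlafen family gene of immune cells, was at 3.79, 3.46 and 4.04 CPM with vehicle and at 16.2, 11.3 and 16.1 CPM with B-LGND2. The groups lay far apart (log2 fold change 1.95, SE 0.30, adjusted p = 0.00265), and the call held in 20 of 20 alternatives. Ifi30, a lysosomal reductase of antigen-presenting cells, rose by 1.14 (SE 0.27, adjusted p = 0.0257). Ifitm3, a membrane protein that blocks virus fusion, rose by 0.93 (SE 0.23, adjusted p = 0.0285). Both were called in 13 of 20 alternatives, not without any single high fat vehicle library (adjusted p up to 0.148 and 0.133) nor B-LGND2 replicate 1 (0.0696 and 0.104) or 3 (0.0607 and 0.051). Ddx60 fell (−2.38, SE 0.66, adjusted p = 0.0448) from 12, 12 and 11 counts to 3, 3 and 1, a call that held in 7 of 19 alternatives and in 2 of the 9 fits with a library left out. With B-LGND2 against the normal diet, Slfn5 was called higher (1.57, SE 0.36, adjusted p = 0.0276), and no other gene of this list was (background 1.59% higher). Its call ended without normal diet replicate 2 (0.117) or B-LGND2 replicate 2 (0.0787).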

How the data were processed

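Poly(A)-enriched liver RNA was sequenced on an Ion Torrent Proton, per the labels' protocols. The authors deposited raw read counts per gene for 9 libraries, without normalization. The submitters' processing notes name HTSeq 0.6.1p1 among TopHat2 2.0.13, Bowtie2 2.2.4, SAMtools 0.1.19 and DESeq2 1.6.3, and build GRCm38.p3. How strand was set and which annotation was counted is not stated, so overlapping, antisense and near-identical genes (Oas1, Ifit3, Gbp and Tgtp relatives) are uncertain. Symbols and coordinates came from GENCODE M21 by gene ID (44671 of 45513 matched), and promoters from RefSeq GRCm38.p6.

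Genes passing filterByExpr of edgeR 4.0.16 (minimum count 10, R 4.3.3) numbered 12102 and kept at least 99.73% of each library's counts. A robust quasi-likelihood model on TMM-scaled counts was fitted to all 9 libraries, with 6 residual degrees of freedom among samples. The 3 contrasts were two-sided, with Benjamini-Hochberg adjustment over all genes tested and a threshold of 0.05. The test was run on counts simulated from its own fitted dispersions. These held no length or GC effects, so that check does not cover the effects seen in these libraries. CPM uses TMM-scaled library sizes. Reads of amplified libraries without molecular identifiers are not independent molecules.

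Members, roles, lists and tests were chosen with earlier results of these data known. Named with values by rule were members called in any comparison, the 5 smallest p of each comparison and the highest per-length level of each role. Other pathway genes were named where called, with Ifnar1 and Ifngr1. A result of these lists is not reported here. Irgm1, Ifi27, Lgals3bp, Rtp4 and Ddx58 were added after their values were seen. Alternatives were DESeq2 size factors, library size alone, no filter, voom of limma 3.58.1, the Wald test of DESeq2 1.42.0, a minimum of 50 counts in at least 3 libraries, dispersions not made robust, a fit of just the pair of groups compared, a block for replicate number, and leaving out each library. Chosen after seeing the data were a loess offset (span 0.3) for transcript length and GC, and leaving out normal diet replicate 1 and B-LGND2 replicate 1 together.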

Additional observations from a re-analysis of the deposited data

How the results depend on the processing

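The number of members called was small under every setting tried and depended on it. For the diet, 2 members were called: 0 with library size alone, with only the 2 groups compared or with the length and GC offset, 1 with the replicate block, 5 without the 2 libraries that stood apart, and 0 to 4 with each library left out. For B-LGND2 against vehicle, 2 were called: 1 with library size alone, limma-voom, the replicate block, the length and GC offset or without the 2 libraries that stood apart; 5 with no filter, DESeq2 or only the 2 groups; and 0 to 5 with each library left out. For B-LGND2 against the normal diet, 1 was called: 3 with DESeq2, 0 with only the 2 groups, 2 with the length and GC offset, and 0 to 1 with each library left out. Calls over all genes, given below for part of these settings, moved too, so these counts alone say little about the members. The median of the members for B-LGND2 against vehicle was −0.0193 with library size alone, beside −0.178 over all genes. It was 0.246 with the length and GC offset, beside 0.01 over all genes. Without the 2 libraries that stood apart it was 0.219. With each library left out it ran from 0.0205 (without B-LGND2 replicate 3) to 0.221 (without B-LGND2 replicate 1).

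Calls over all genes moved as well. For the diet 362 genes were called, 1182 with no filter, 984 with DESeq2, 153 with only the 2 groups, 203 with the replicate block, 229 with the length and GC offset, 2381 without the 2 libraries that stood apart and 35 to 1860 with each library left out. For B-LGND2 against vehicle the count was 681, against 1345, 1123, 1420 with only the 2 groups, 414 without the 2 libraries and 100 to 1439. For B-LGND2 against the normal diet it was 354, against 751, 660, 144 with only the 2 groups, and 111 to 639. With library size alone, 260 of 358 diet calls were higher, in place of 182 of 362, and 211 of 679 for B-LGND2 against vehicle, in place of 371 of 681. The cause was not tested.

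Iigp1 turned negative for B-LGND2 against vehicle with library size alone (−0.15), limma-voom (−0.0739), the replicate block (−0.0574) and without the 2 libraries that stood apart (−0.00422), and ran from −0.29 to 0.32 with each library left out. Ifih1 ran from −0.13 to 0.58. Values under alternatives were also counted for a chosen set of genes, each in chosen comparisons only. Of these values, 410 kept direction and side of the threshold, 85 lost a call, 34 gained it and 8 changed sign. The set leaves out Irgm1, Ifi27, Lgals3bp, Rtp4 and Ddx58, and other comparisons of the genes in it. Signs changed outside the set too, as for Ifi27 and the diet with the length and GC offset (−0.17 to 0.29). Same-numbered libraries correlated at −0.193 to 0.124 after removal of group means. These values show no pairing by number but cannot exclude it, because differently numbered libraries were not compared. Counts were too few to compare groups for Oas1a, Mx1 and Tgtp1, and for the interferon genes, and the cause was not tested. In the annotation Tgtp1 also shares 223 exon bases with Gm12185.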
